A study of Mus musculus with 16 samples.

Results

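Soat2, Nr1h3, Enpp7 and Mylip are 4 genes of intestinal cholesterol and sphingomyelin handling among the 2438 genes in the authors' deposited table. They were chosen by name after their difference between the groups had been seen, so their values between the groups are a description and carry no test. The samples were 16 RNA sequencing libraries of duodenal epithelium from mice fed a high fat diet for 19 weeks from 8 weeks of age. In 9 libraries, called flox (replicates 1 to 7, 9 and 10), the mice had both Ephb4 alleles floxed, and in 7, called KO (replicates 1 to 5, 7 and 8), Ephb4 had been deleted from intestinal epithelial cells. The labels name no recombinase line, strain or sex, and the design text speaks of proximal small intestine tissue rather than epithelium. It counts 9 and 7 mice, as many as there were libraries. The study asked how loss of epithelial EphB4, a receptor tyrosine kinase, bears on diet-induced obesity.

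Enterocytes take up cholesterol from the gut lumen, and SOAT2 esterifies it with fatty acids so that it can be packed into chylomicrons. Liver X receptors, of which Nr1h3 encodes the alpha form, are oxysterol-sensing nuclear receptors that work with retinoid X receptors and raise sterol efflux. One of their targets is Mylip, also called IDOL, a ubiquitin ligase that marks lipoprotein receptors for degradation. Enpp7 encodes alkaline sphingomyelinase, a brush border enzyme that splits dietary sphingomyelin into ceramide, and in mice its loss slows sphingomyelin digestion.

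In the GRCm38 coordinates of the table, Soat2 (ENSMUSG00000023045) lay at chr15:102150526-102163469 on the plus strand and Nr1h3 (ENSMUSG00000002108) at chr2:91184061-91202834 on the minus strand. Enpp7 (ENSMUSG00000046697) lay at chr11:118988188-118992841 and Mylip (ENSMUSG00000038175) at chr13:45389742-45412022, both on the plus strand. All 4 were protein coding, and the values are sums over their exons. In the GENCODE M21 annotation 34 exonic bases of Nr1h3 were shared with Gm13783 on the same strand, and no exon of the other 3 genes overlapped another gene.

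RefSeq promoter windows (GRCm38.p6, 250 bases before to 50 after a transcript start) were found for 3 of the 4 genes, with 2 starts for Nr1h3, and Soat2 had no entry. They are shown because Enpp7 and Nr1h3 were lower and Mylip higher in KO. Capitals mark a motif found by a search of both strands, and each window is written 5′ to 3′ on the strand of its gene. The windows are chr11:118987931-118988230 on the plus strand for Enpp7, chr13:45389492-45389791 on the plus strand for Mylip and, of the 2 for Nr1h3, chr2:91195067-91195366 on the minus strand.
Enpp7: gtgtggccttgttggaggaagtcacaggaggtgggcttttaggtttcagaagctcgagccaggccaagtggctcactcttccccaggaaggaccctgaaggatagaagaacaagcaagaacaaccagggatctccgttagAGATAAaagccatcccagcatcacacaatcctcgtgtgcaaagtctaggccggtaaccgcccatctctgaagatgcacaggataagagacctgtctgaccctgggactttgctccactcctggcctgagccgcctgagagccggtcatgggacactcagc
Mylip: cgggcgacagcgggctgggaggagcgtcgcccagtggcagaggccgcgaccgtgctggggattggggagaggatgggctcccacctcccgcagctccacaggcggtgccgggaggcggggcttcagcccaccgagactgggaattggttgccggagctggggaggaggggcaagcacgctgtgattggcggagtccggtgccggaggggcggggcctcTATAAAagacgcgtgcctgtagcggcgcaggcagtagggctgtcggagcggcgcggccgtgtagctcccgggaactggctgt
Nr1h3: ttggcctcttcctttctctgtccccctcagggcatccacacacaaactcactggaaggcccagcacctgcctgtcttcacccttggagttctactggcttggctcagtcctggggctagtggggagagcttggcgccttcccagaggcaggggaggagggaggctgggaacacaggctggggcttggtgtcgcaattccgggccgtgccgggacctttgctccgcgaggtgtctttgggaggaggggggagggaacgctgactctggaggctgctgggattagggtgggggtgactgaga
The Enpp7 window held the GATA motif AGATAA at positions -110 to -105 from the start, a motif present in 11.2% of 32851 windows. The Mylip window held the TATA box letters TATAAA at positions -32 to -27, as did 13.6% of all windows in any position. Neither Nr1h3 window held any of the 5 motifs searched, and its starts lay inside the gene rather than at its outer end. AGGTCA, the letters a single nuclear receptor binds (16.3% of windows), and the CDX motif TTTATG (11.9%) were in none of the 4 windows. A pair of AGGTCA letters in the same direction with 4 bases between them, the form that liver X receptors bind, was also in none, and it occurred in 5 of the 32851. No motif overlapped another. The GC share was 55.0% for Enpp7, 71.0% for Mylip and 63.0% for the Nr1h3 window shown, against a median of 52.7% over all windows.

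Each value is a normalised count, which is the number of reads in a gene divided by 1 size factor per library. The table held only genes under the authors' adjusted p threshold, with a largest adjusted p of 0.0497. They were 14.8% of the 16488 genes adjusted over, with 6.97% higher and 7.81% lower in KO. All 4 genes stood in it, 3 of them lower and 1 higher in KO, which the choice of members fixed, so nothing is read from that count. The reads behind the listed genes numbered 4237178 to 5316273 in each flox library and 3592468 to 4555872 in each KO library, and total depth is unknown. Ephb4 itself averaged 210.5 ± 94.4 (SD, n = 9) normalised counts in flox and 36.6 ± 21.7 (SD, n = 7) in KO, with no overlap. Of 20 enterocyte markers 9 were listed, all lower in KO, and their summed level ran from 626350 to 878618 in flox and from 405907 to 667954 in KO. Of 83 markers of immune, stromal and endothelial cells (below, the non-epithelial markers) 12 stood in the table, all higher in KO, with sums of 347.6 to 905.5 in flox and 498.3 to 2328 in KO. Among these 12 only Lum stood at 0 in any library, in 5 flox and 1 KO. Of 20 proliferation markers 15 were listed, all higher, with sums of 1074 to 3461 in flox and 2657 to 5784 in KO. Of 32 pancreatic acinar genes 25 were listed, all lower in KO. They summed to at least 5000 in flox replicates 4, 6, 7, 9 and 10, while no KO library held more than 1767. The part of these cells in the values below was not tested, and in bulk samples fewer cells of a type and less RNA per cell cannot be told apart.

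Soat2 was lower in KO. In flox its normalised counts ran from 4334 through a median of 4597 to 6300. In KO they ran from 2807 through a median of 3446 to 4414. All 7 KO libraries lay below the flox median, and only KO replicate 8 reached into the flox range. Flox replicates 3 and 10 stood above the other flox libraries, at 6065 and 6300. The means were 4950 ± 744 (SD, n = 9) in flox and 3514 ± 525 (SD, n = 7) in KO, 1.41-fold lower. The difference of KO minus flox on the log2(normalised count + 1) scale was -0.49 ± 0.10 (SE). In the authors' deposited table Soat2 had a log2 fold change of -0.49, at an adjusted p of 0.00042. With the non-epithelial marker score, the mean log2 level of the 12 listed markers after centring each, added as a covariate the difference was -0.27 ± 0.13 (SE). That covariate moved the median difference of all listed genes from -0.25 to -0.14, a shift of 0.11. The 12 markers were all listed as higher in KO, so the covariate overlaps with the group. It can take up part of a group difference whatever its origin.

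Nr1h3 was lower in KO by a smaller amount. Flox libraries ran from 1132 through a median of 1313 to 1695 normalised counts, and KO libraries from 953.5 through 1069 to 1228. No KO library exceeded the flox median, but KO replicates 5 and 8 lay inside the flox range and 4 flox libraries lay inside the KO range. The means were 1363 ± 211 (SD, n = 9) and 1066 ± 95.3 (SD, n = 7), 1.28-fold lower in KO. The log2 difference was -0.34 ± 0.09 (SE), and it was -0.20 ± 0.07 (SE) with TMM scaling on the listed genes. TMM moved the same median over all listed genes from -0.25 to -0.10, a shift of 0.14. In the authors' deposited table Nr1h3 had a log2 fold change of -0.35, at an adjusted p of 0.00701.

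Enpp7 had the widest difference of the 3 lower genes. Its normalised counts in flox ran from 1972 through a median of 4265 to 7344, and in KO from 914.5 through 1302 to 2393. The flox libraries fell into a lower set of 4, replicates 4 to 7 at 1972 to 2578, and an upper set of 5 at 4265 to 7344. The upper set lay above every KO library, while the lower set lay close to KO replicates 5 and 8, at 2116 and 2393. Of the flox libraries rich in pancreatic transcripts, replicates 4, 6 and 7 were in the lower set and replicates 9 and 10 in the upper set, and the part of these transcripts in the split was not tested. Mean levels were 3912 ± 1808 (SD, n = 9) in flox and 1495 ± 564 (SD, n = 7) in KO, 2.62-fold lower. The log2 difference was -1.34 ± 0.28 (SE), it was -1.48 ± 0.29 (SE) without the 5 flox libraries rich in pancreatic transcripts, and -1.30 ± 0.45 (SE) with the non-epithelial covariate. In the authors' deposited table Enpp7 had a log2 fold change of -1.39, at an adjusted p of 0.000619.

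Mylip was the scarcest of the 4 genes and the only one with a higher mean in KO. Its flox libraries ran from 14.3 through a median of 24.3 to 62.4 normalised counts, and its KO libraries from 16.1 through 61.1 to 97.0. These rested on 15 to 60 reads in flox and 16 to 134 in KO. KO replicates 2 and 3, at 19.6 and 16.1, lay among the flox libraries, and flox replicate 2, at 62.4, lay among the KO libraries. The means were 27.1 ± 14.2 (SD, n = 9) in flox and 60.0 ± 32.0 (SD, n = 7) in KO, 2.21-fold higher. The log2 difference was 0.99 ± 0.37 (SE), and it was 0.56 ± 0.50 (SE) without the 5 flox libraries rich in pancreatic transcripts. With the non-epithelial covariate it turned to -0.37 ± 0.34 (SE). That covariate is made of markers all listed as higher in KO, so the turn cannot be separated from its overlap with the group. In the authors' deposited table Mylip had a log2 fold change of 1.15, at an adjusted p of 0.0172, the largest of the 4.

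**Figure D1:**
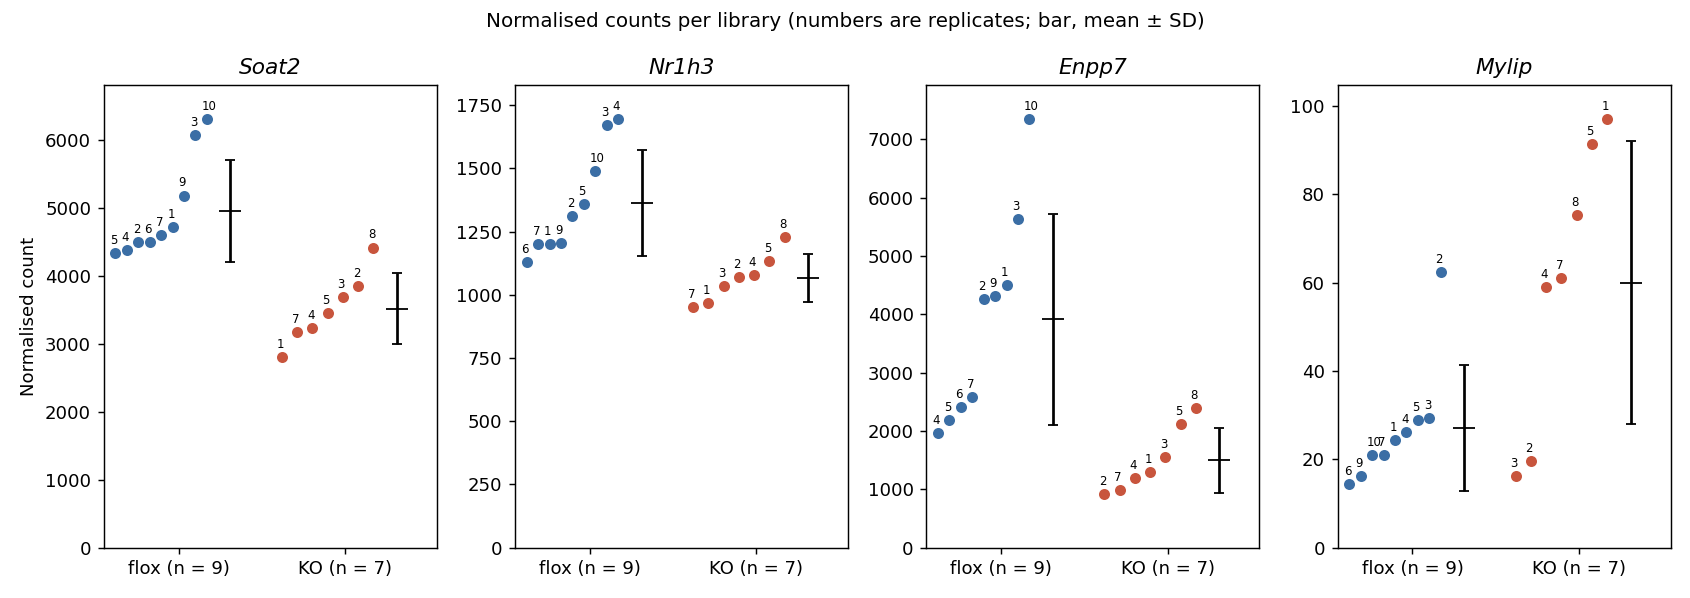
Normalised counts (y axis, starting at 0, a separate scale per gene) of Soat2, Nr1h3, Enpp7 and Mylip in each flox (blue, n = 9) and KO (red, n = 7) library, sorted within groups, with replicate numbers beside the points and mean ± SD as black bars. All 7 KO libraries lie below the flox median for the first 3 genes, while for Mylip KO replicates 2 and 3 lie among the flox libraries.

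The 4 genes differed in how much they varied inside a group. The SD was 15.0% of the mean for Soat2 in flox and 14.9% in KO, and 15.5% and 8.94% for Nr1h3. It was 46.2% and 37.8% for Enpp7, a spread of 3.72-fold from the lowest to the highest flox library. Counting error was between 1.46% and 2.98% for these 3 genes, well under their spread between libraries. For Mylip the SD was 52.5% of the mean in flox and 53.4% in KO, against a counting error of 21.1% and 15.8%. These counting errors cover the sampling of reads only.

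Levels were compared between genes per kilobase of gene length. In flox Enpp7 stood at 2620 ± 1211 (SD, n = 9) normalised counts per kilobase, Soat2 at 2237 ± 336, Nr1h3 at 542.0 ± 83.9 and Mylip at 8.38 ± 4.40. The levels of Enpp7 and Soat2 overlapped, with Enpp7 the higher in 5 of 9 flox libraries. In KO the mean level of Soat2 was 1588 ± 237 (SD, n = 7) per kilobase and that of Enpp7 1001 ± 378, and Soat2 was the higher of the pair in all 7 libraries. The ratio of Enpp7 to Soat2 per kilobase ran from 0.668 to 1.73 in flox and from 0.352 to 0.910 in KO. Nr1h3 at 424.0 ± 37.9 and Mylip at 18.5 ± 9.90 kept the lower places in KO. Enpp7 and Soat2 each exceeded Nr1h3 in every library of both groups. The table gave Enpp7 a length of 1493 bases, while GENCODE M21 annotates 1951 exonic bases, so its level per kilobase depends on the gene model.

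The deviations of libraries from their own group mean do not use the contrast on which the genes were chosen, and they allow a test. The genes and all score markers were still taken from a table selected on that contrast. This selection can favour genes that vary together, so the relations are not independent of it. Pearson's r was computed on log2 deviations over the 16 libraries for the 6 pairs of genes and for each gene with 4 marker scores, 22 relations in all, with two-sided permutation of libraries within groups and Benjamini-Hochberg adjustment. A score is the mean log2 level of the listed markers after centring each gene. All measures share the size factor of a library, so some of any r can come from it.

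Soat2 and Enpp7 varied together between libraries, with r = 0.70, a permutation p of 0.00396 and an adjusted permutation p of 0.0218. On ranks rho was 0.73, with a permutation p of 0.00392 and an adjusted one of 0.0521, which missed the threshold of 0.05. Within flox r was 0.85 (exact permutation p = 0.00059, n = 9) and within KO 0.45 (exact permutation p = 0.313, n = 7). Without flox replicate 10 and KO replicate 8, the libraries farthest from the median of Soat2, r was 0.49 (permutation p = 0.0875), so the relation rests in part on them. Without flox replicates 10 and 4, the farthest on Enpp7, r was 0.58 (permutation p = 0.0375, not adjusted). Leaving out flox replicate 5, flox replicate 10 or KO replicate 8 alone gave r of 0.67, 0.60 and 0.64 and adjusted permutation p of 0.0513, 0.115 and 0.0741. The 5 flox libraries with pancreatic transcripts and the other 4 were too few for an r of their own, and without the 5 the r over 11 libraries was 0.56 (adjusted permutation p = 0.279).

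Soat2 and Nr1h3 each followed the enterocyte marker score. For Soat2 r was 0.81 (permutation p = 0.00037, adjusted 0.00407), with 0.71 in flox (exact permutation p = 0.0297, n = 9) and 0.92 in KO (exact permutation p = 0.00913, n = 7). For Nr1h3 r was 0.79 (permutation p = 9e-05, adjusted 0.00198), with 0.84 in flox (exact permutation p = 0.00522, n = 9) and 0.88 in KO (exact permutation p = 0.0159, n = 7). For both genes rho was 0.69, with permutation p of 0.0062 and 0.00711 and the same adjusted p of 0.0521. Without KO replicates 1 and 8, the extremes of the score, r was 0.69 for Soat2 and 0.82 for Nr1h3 (permutation p = 0.0124 and 0.00139, not adjusted). Leaving out the extremes of the gene, flox replicate 10 and KO replicate 8, r was 0.75 for Soat2 (permutation p = 0.00445, not adjusted). For Nr1h3 without flox replicates 4 and 3 it was also 0.75 (permutation p = 0.00189, not adjusted). For Enpp7 the r with this score was 0.49 (adjusted permutation p = 0.149) and for Mylip -0.12 (adjusted permutation p = 0.844), neither past the threshold. Soat2 and Nr1h3 themselves gave r = 0.51 (adjusted permutation p = 0.149).

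Mylip and the non-epithelial marker score placed the libraries in 2 separate sets, so no single r is given for them. In 6 libraries, flox replicate 2 and KO replicates 1, 4, 5, 7 and 8, Mylip ran from 59.1 to 97.0 normalised counts and the score from 0.42 to 1.84. In the other 10, 8 flox libraries with KO replicates 2 and 3, Mylip ran from 14.3 to 29.4 and the score from -1.06 to -0.27. The 2 ranges did not overlap on either measure. Inside the upper set r was 0.72 (exact permutation p = 0.0778, n = 6) and rho 0.77 (exact permutation p = 0.103). Inside the lower set r was -0.30 (permutation p = 0.379, n = 10) and rho -0.25 (permutation p = 0.493). These 4 p-values were not adjusted. The sets were split at the widest gap of Mylip after the values of both measures were seen. This narrows the range of Mylip, and that of the score with it, so the missed thresholds do not show that the measures were unrelated. Over both sets the relation had an adjusted permutation p of 0.0108, which was 0.284 on ranks and 0.0734 without flox replicate 2.

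**Figure D2:**
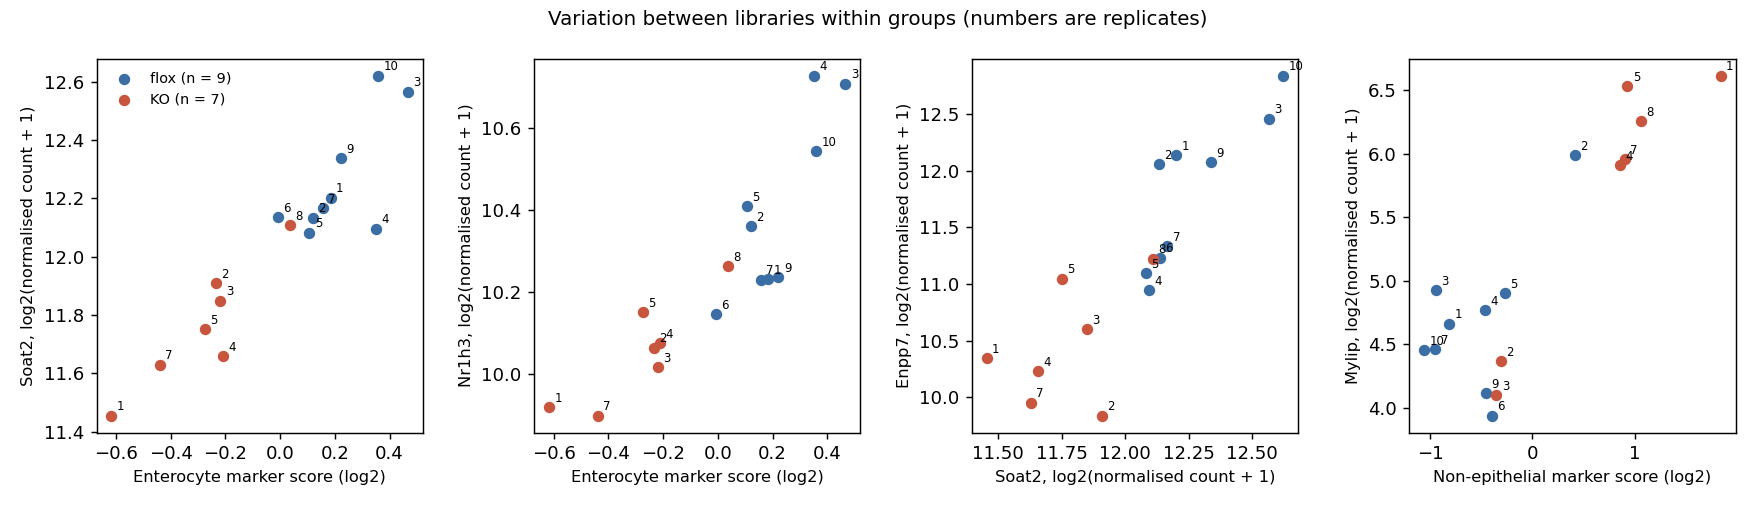
Log2 levels of single genes in each flox (blue, n = 9) and KO (red, n = 7) library, with replicate numbers, plotted against the enterocyte marker score for Soat2 and Nr1h3, against Soat2 for Enpp7 and against the non-epithelial marker score for Mylip. Soat2 and Nr1h3 climb with the enterocyte score in both groups, and Mylip splits the libraries into 6 with a score of at least 0.42 and 10 with a score of at most -0.27.

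By Pearson's r, 4 of the 22 relations passed the adjusted permutation test, counting that of Mylip with the non-epithelial score, and the others did not. On ranks 0 of the 22 passed after adjustment and 4 had an unadjusted permutation p under 0.05. Leaving out 1 library brought 3 more score relations past the threshold. These were Nr1h3 with proliferation without flox replicate 1 (r = -0.79, adjusted permutation p = 0.0083), Soat2 with the non-epithelial score without KO replicate 8 (r = -0.71, 0.013) and Enpp7 with the enterocyte score without flox replicate 4 (r = 0.64, 0.0393). With the non-epithelial score r was -0.53 for Soat2 (adjusted permutation p = 0.149), -0.13 for Nr1h3 (0.788) and -0.03 for Enpp7 (0.913). With the proliferation score the r of Nr1h3 was -0.58 (adjusted permutation p = 0.144), and those of the other 3 lay between -0.31 and -0.14. With the pancreatic score r lay between -0.23 and 0.05 for the 4 genes.

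From 2338 other genes of the table averaging 10 or more normalised counts, the 5 whose deviations were most like those of each gene were found by the same r over the 16 libraries, as a description with no test. For comparison, the median r over all these genes was 0.10 for Soat2, 0.13 for Nr1h3, -0.01 for Enpp7 and -0.07 for Mylip.

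Soat2 was most alike to Cd151, a tetraspanin, with r = 0.89. Next came the chloride channel gene Clcn2 (0.87), the magnesium transporter gene Cnnm4 (0.87), Slc3a2, the heavy chain of amino acid transporters (0.86), and Fam83h (0.86). All 5 were lower in KO, with log2 fold changes of -0.29 to -0.48 in the authors' deposited table. For Nr1h3 the genes were C130074G19Rik (0.92), Wbp1l (0.87), the TNF receptor adaptor Tradd (0.87), Ehbp1l1 (0.86) and Leng9 (0.84), again all lower, at -0.27 to -0.58 in the authors' deposited table.

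Enpp7 was most alike to Sgpl1, the lyase that degrades sphingosine-1-phosphate, with r = 0.88 over 16 libraries, 0.89 in flox and 0.86 in KO. Sgpl1 ran from 6324 through 10253 to 13527 normalised counts in flox and from 5566 through 6512 to 8606 in KO. As with Enpp7, its 4 lowest flox libraries were replicates 4 to 7, and its highest KO libraries were replicates 5 and 8. The others were the atypical cadherin Fat1 (0.84), Pxdc1 (0.82), the mitochondrial glutamate carrier Slc25a22 (0.81) and Susd2 (0.81), all lower in KO at -0.36 to -0.99 in the authors' deposited table.

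Mylip was most alike to Satb1, a chromatin organiser known from lymphocytes, with r = 0.96. Satb1 ran from 6.69 through 12.4 to 55.1 normalised counts in flox, its highest library being replicate 2. In KO it ran from 10.1 through 48.7 to 112, lowest in replicates 2 and 3, the same libraries that stood apart for Mylip. Next came Sh3bp5 (0.95), the B cell gene Fcrla (0.94), the NF-kappaB inhibitor gene Nfkbie (0.93) and Igfbp5 (0.92), all higher in KO. Fcrla is itself 1 of the 12 genes in the non-epithelial score.

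**Figure D3:**
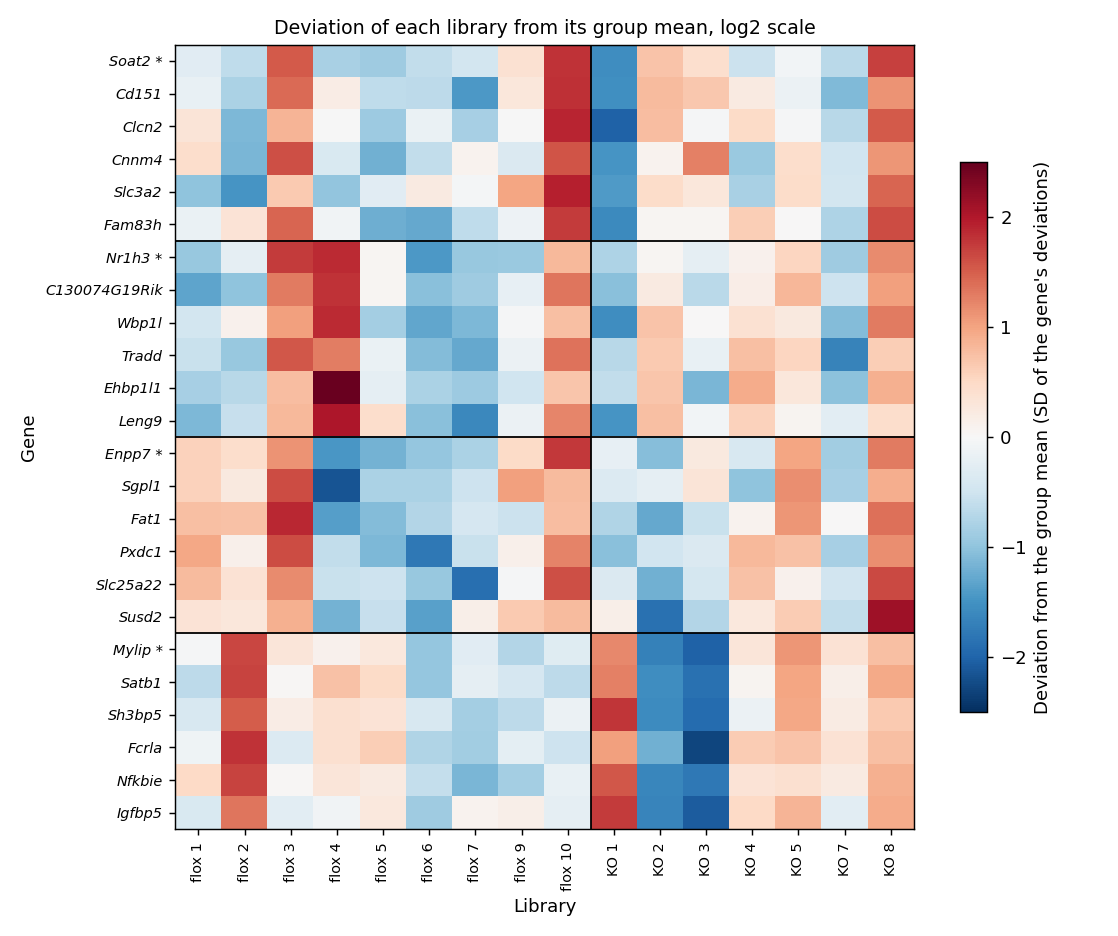
Deviation of each of the 16 libraries (columns) from its group mean on the log2 scale, divided by the SD of the gene's deviations (colour), for Soat2, Nr1h3, Enpp7 and Mylip (asterisks) and the 5 listed genes most like each. The block of Mylip is high in flox replicate 2 and low in KO replicates 2 and 3, and the block of Enpp7 is low in flox replicates 4 to 7 for nearly all its genes.

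Around the 4 genes, 10 lists of sterol and sphingolipid genes were counted, 164 genes in all. Apart from the 4, 26 of 160 were in the authors' deposited table (16.3%), 6 higher and 20 lower in KO, near the 14.8% of all genes adjusted over. Their median log2 fold change in that table was -0.35, against -0.23 for all listed genes. Of the 160, limma passed 16 (10.0%) at an adjusted p under 0.05, 1 higher and 15 lower. Over all 16488 genes it passed 1269 (7.7%), 449 higher and 820 lower. Among listed genes alone the shares were 61.5% of the 26 and 52.1% of the 2438. Nothing is read from limma for the 4 members, which were chosen on this contrast. The other listed genes had also been selected on this contrast in the same libraries. Passing limma is therefore a description and no independent support for any of them.

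Of 23 genes of cholesterol uptake and trafficking 8 were listed as lower and 1 as higher. Lrp1, a large endocytic receptor, averaged 7197 ± 824 (SD, n = 9) normalised counts in flox and 5142 ± 770 (SD, n = 7) in KO, 1.40-fold lower. The fatty acid and lipid receptor gene Cd36 was 1.58-fold lower, and Flot1, a membrane scaffold protein involved in NPC1L1 endocytosis, 1.36-fold lower. Cd36 did not pass limma (adjusted p = 0.0956). Stard3, Anxa2, Lima1 and Snx17 were also lower, at -0.26 to -0.37 in the authors' deposited table. Npc1l1, the receptor for luminal cholesterol, was not listed.

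Of 12 genes of cholesterol esterification and ester hydrolysis 3 were listed, all lower, namely Soat2, Cel and Lipe. Lipe, the hormone-sensitive lipase, was 1.27-fold lower, at 2878 ± 293 (SD, n = 9) in flox and 2264 ± 275 (SD, n = 7) in KO. Cel, the bile salt-stimulated ester lipase of pancreatic juice, ran from 1.03 to 7682 normalised counts in flox and from 0 to 46.1 in KO. It belongs to the 25 listed pancreatic genes, and it did not pass limma (adjusted p = 0.325).

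Of 15 genes of liver X receptors, their partners and their corepressors 4 were listed, all lower. Nr1h2, the beta form of the receptor, ran from 1619 through 1717 to 2008 normalised counts in flox and from 1023 through 1277 to 1613 in KO. Rxra, the main retinoid X receptor partner in many tissues, ran from 3405 through 3866 to 4542 in flox and from 2444 through 3091 to 3140 in KO. The groups did not overlap for either gene. How many of all listed genes shared this was not counted, so nothing particular to these genes is read from it. Nr1h2 was 1.30-fold, Rxra 1.34-fold and Rxrb 1.29-fold lower, and their adjusted p in limma was 0.0126, 0.00579 and 0.0396.

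Of 21 liver X receptor targets only Mylip, higher, and Lpcat3, lower, were listed. Lpcat3, which loads polyunsaturated fatty acids into phospholipids, averaged 5990 ± 926 (SD, n = 9) in flox and 4756 ± 546 (SD, n = 7) in KO, 1.26-fold lower, with an adjusted p of 0.047 in limma. The efflux transporter genes Abca1, Abcg1, Abcg5 and Abcg8 and the lipogenic factor gene Srebf1 were not listed. Of 10 genes of the IDOL pathway 2 were listed as higher and 1 as lower. Ube2d1, a ubiquitin-conjugating enzyme of the family that works with IDOL, was 1.30-fold higher and did not pass limma (adjusted p = 0.0669).

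Of 30 genes of cholesterol synthesis and SREBP2 targets 4 were listed as higher and 2 as lower. Idi1, an isomerase early in the pathway, averaged 210.7 ± 44.5 (SD, n = 9) in flox and 334.9 ± 68.0 (SD, n = 7) in KO, and it was the 1 gene of all lists that passed limma as higher (adjusted p = 0.0136). Squalene synthase Fdft1 was 1.31-fold and squalene epoxidase Sqle 1.33-fold higher. The late enzyme gene Tm7sf2 was 1.24-fold lower. None of these 3 passed limma, with adjusted p of 0.0572 to 0.0913. Of 13 bile acid genes 1 was listed, the xenobiotic receptor gene Nr1i2, 1.38-fold lower, which did not pass limma (adjusted p = 0.065).

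On the sphingolipid side, Enpp7 was the 1 gene listed of 16 for sphingomyelin and ceramide digestion, and the acid and neutral sphingomyelinase genes Smpd1 to Smpd4 were not listed. Of 30 genes of sphingolipid synthesis and turnover 3 were listed, all lower. Ormdl3, a regulator of the first enzyme of sphingolipid synthesis, was 1.53-fold lower, at 2825 ± 467 (SD, n = 9) in flox and 1850 ± 320 (SD, n = 7) in KO, with an adjusted p of 0.00726 in limma. Sgpl1 was 1.45-fold lower and the sphingosine-1-phosphate exporter gene Spns2 1.29-fold lower, with adjusted p of 0.0311 and 0.0286 in limma. Of the 7 ENPP family genes Enpp7 was lower and Enpp2, which makes lysophosphatidic acid, was higher at a low level, with 15.0 ± 11.7 (SD, n = 9) in flox and 41.5 ± 26.9 (SD, n = 7) in KO. Enpp2 did not pass limma (adjusted p = 0.114).

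The limma count of 16 over the lists without the members moved with single libraries, from 8 to 17. It was 9 without flox replicate 3, 10 without flox replicate 10, 10 without KO replicate 1 and 8 without KO replicate 7, while the count over all genes went from 1269 to 615, 646, 646 and 518. With TMM scaling on the listed genes 8 passed, 4 higher and 4 lower, and over all genes 724 higher and 189 lower in place of 449 and 820.

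**Figure D4:**
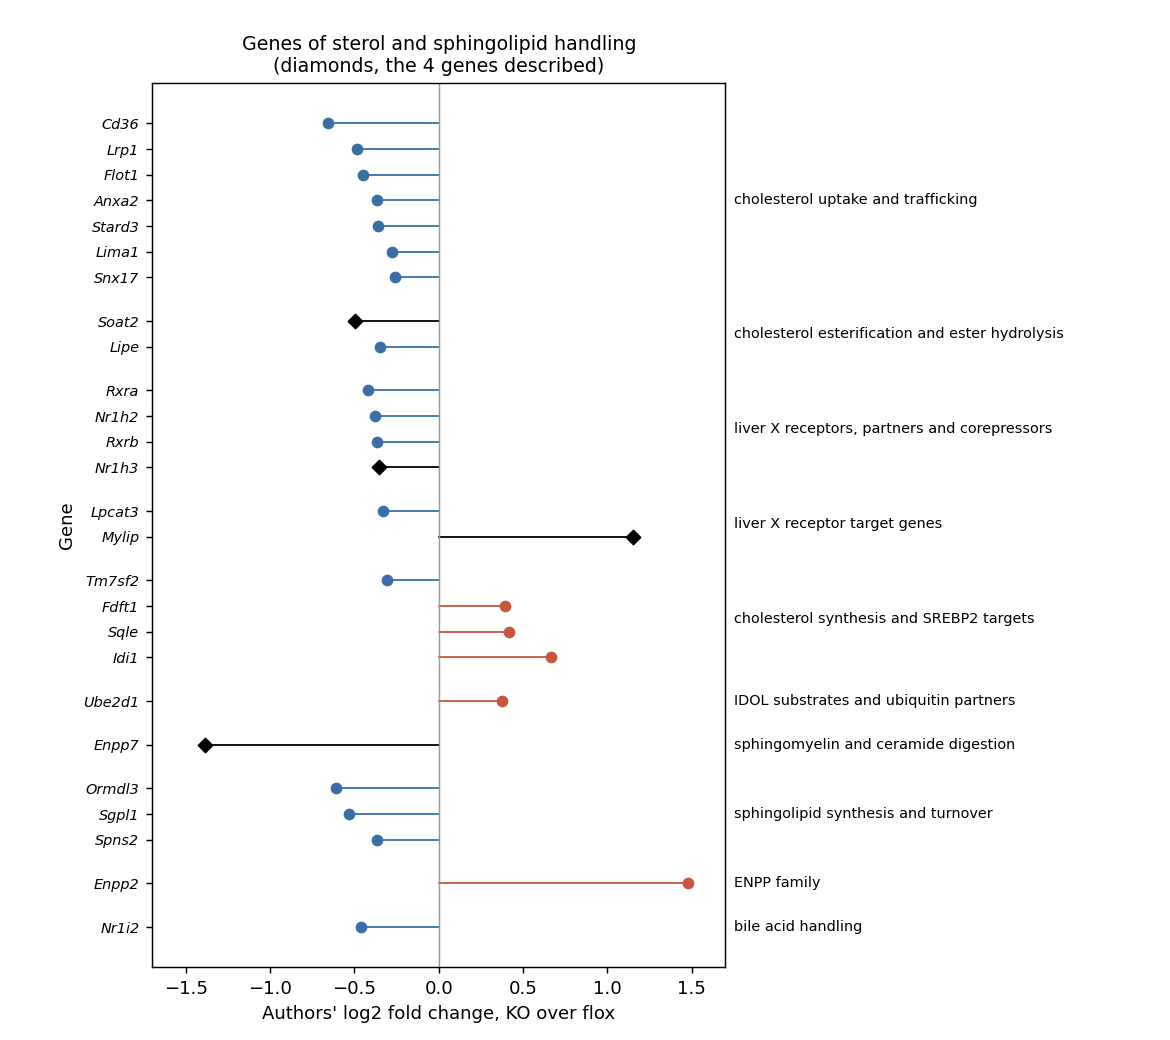
Log2 fold change of KO over flox in the authors' deposited table (x axis) for listed genes of the 10 lists, shown once under the first list that holds it, with Soat2, Nr1h3, Mylip and Enpp7 as black diamonds, other lower genes in blue and other higher genes in red. Cel, at -6.96, is left out for scale, 3 other listed genes are not shown, and the uptake genes shown lie between -0.66 and -0.26.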

How the data were processed

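RNA from 16 libraries of duodenal epithelium was sequenced after poly-A selection and NEBNext Ultra library preparation, which does not mark strand; the kit is named per the labels' protocols. The submitters' processing notes name the GRCm38 (mm10) build, HISAT2 2.0.5, DESeq2 1.20.0 and featureCounts 1.5.0-p3, without settings. The deposited signal per library is a gene's read count divided by 1 size factor, made by the authors. The values showed this, since 100% of nonzero values were whole multiples of 1 step per library within 0.0001 reads. Size factors ran from 0.878 to 1.38. On low values alone (up to 20 times the smallest) the step could not be judged in KO replicate 1, with 76 such values, nor in KO replicate 3, whose size factor of 0.993 is close to 1, so edgeR was also run without them. The authors also deposited a log2 fold change, a p-value and an adjusted p-value per gene. Only genes that passed their threshold on these libraries were in the table, and other genes were not analysed here.

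Members and lists were chosen with earlier results of these data known. limma 3.58.1 (trend, robust) was fitted in R 4.3.3 on log2(normalised count + 1) for the 2339 genes with a mean of at least 10, two-sided, with Benjamini-Hochberg adjustment over 16488 genes and unlisted genes at a p of 1. edgeR 4.0.16 quasi-likelihood and DESeq2 1.42.0 were run on recovered reads. The limma, edgeR and DESeq2 fits were tested on simulated data in their plain form, without TMM, a block or a covariate. Correlations used 100000 resamples, or every ordering within 1 group. No 2 libraries of a group were duplicates, with at least 16.1 as chi-square per degree of freedom. The genes named are the 4 members, up to 4 genes per list with the largest absolute log2 fold change of the authors, the 5 most alike genes per member, and Ephb4. Remaining list genes were named after their values were seen, and some listed genes are counted but not reported by name here. The alternatives were pseudocounts of 0.5 and 5, no filter, TMM, a replicate block, a covariate, other tools and libraries left out.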

Additional observations from a re-analysis of the deposited data

Results flagged for a closer look

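Mylip in flox replicate 2 stood at 62.4 normalised counts, far above the next flox library at 29.4. The gap was 0.687 of the range of the 9 libraries, above Dixon's critical value of 0.493. The same library had the highest non-epithelial marker score of the flox libraries (0.42).

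Ephb4, the deleted gene, stood at 84.7 normalised counts in KO replicate 1, while the next KO library held 37.3. The gap was 0.773 of the range of the 7 libraries, above the critical value of 0.568. KO replicate 1 also had the highest non-epithelial marker score (1.84) and the lowest enterocyte score (-0.62) of the 16 libraries. Its size factor, at 1.38, was the largest. The part of these in its Ephb4 value was not tested. The difference of the 4 genes without KO replicate 1 kept its direction, at -0.44 for Soat2, -0.32 for Nr1h3, 0.83 for Mylip and -1.32 for Enpp7. Of 10 gene and group combinations examined 2 were marked in this way, and chance marks about 1 in 20.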

How the results depend on the processing

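The direction of Soat2, Nr1h3 and Enpp7 held under every alternative run. Leaving out 1 library at a time gave log2 differences of -0.55 to -0.44 for Soat2, -0.38 to -0.30 for Nr1h3, 0.83 to 1.25 for Mylip and -1.46 to -1.20 for Enpp7. With the non-epithelial covariate Soat2 moved to -0.27 and Mylip turned to -0.37, and the cause was not tested. Its markers were all listed as higher in KO, so that covariate can take up part of a group difference. The limma count of 19 list genes, members included, became 10 with TMM and 10 to 20 with 1 library left out. It was 0 with that covariate, 0 without the flox libraries with pancreatic transcripts and 0 with the replicate block. Before adjustment 9, 23 and 25 list genes passed 0.05, counts that include members, so nothing is read from them for the members. Over all genes only 7, 11 and 9 of 16488 passed in these 3 settings, so the 0 is not particular to the lists. On the recovered reads 18 list genes apart from the members were called in edgeR and 22 in DESeq2. With KO replicates 1 and 3 left out, an alternative added after seeing the data, edgeR called 7. Deviations of the 6 same-numbered pairs correlated at -0.43 to 0.37, and the main fits did not treat the numbers as pairs. Pairing was not tested against pairs of unlike number, so it is not excluded. With the replicate block the difference of Mylip was 0.63.

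The correlation of Soat2 and Enpp7 lost its call on ranks (0.73) and without the flox libraries with pancreatic transcripts (0.56). Over the 16 fits without 1 library it ran from 0.60 to 0.81 and lost its call in 3, without flox replicate 5, flox replicate 10 or KO replicate 8. Soat2 and Nr1h3 gave 0.38 to 0.74 with 1 library left out, the highest without flox replicate 4, where the adjusted permutation p was 0.0151. Their r was 0.26 with TMM and their rho 0.23 on ranks, with adjusted permutation p of 0.620 and 0.686. Without the flox libraries with pancreatic transcripts the r of Soat2 and Nr1h3 was 0.79 (adjusted permutation p = 0.0504). On ranks the relations of Soat2 and Nr1h3 with the enterocyte score were 0.69 and 0.69, both at an adjusted permutation p of 0.0521. Low counts of 14.3 to 97.0 limit what can be said of Mylip.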
